A study of Mus musculus with 6 samples.

Results

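Canonical Polycomb repressive complex 1 (PRC1) was examined through 9 genes of its Cbx, Phc and Pcgf families: Cbx2, Cbx6, Cbx7, Cbx8, Phc1, Phc2, Phc3, Bmi1 and Pcgf2. The members were the probe sets whose platform annotation names exactly 1 gene and that gene among these, which gave 18 of 34945 such probe sets and 9 of 18193 genes. The samples were undifferentiated R1 mouse embryonic stem cells, a cell line grown with leukaemia inhibitory factor (LIF), hybridised as total RNA to 6 Affymetrix Mouse Genome 430 2.0 arrays. In 3 samples the cells had been stably transfected with an shRNA (short hairpin RNA) against Pcl2, a Polycomb-like partner of PRC2 encoded by Mtf2, and in 3 samples with a mismatch control sequence. The labels describe the samples as biological replicates, and the Pcl2 shRNA samples as 1 clone, so the spread tested is that between samples, and an effect of the shRNA and one of the clone cannot be told apart. In bulk RNA, fewer cells of a type and less RNA per cell cannot be told apart either.

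Polycomb proteins keep developmental genes silent. PRC2 methylates histone H3, and the chromodomain of a Cbx protein in canonical PRC1 binds that mark. Around a RING-type ubiquitin ligase (Ring1 or Rnf2), each canonical complex holds 1 Pcgf protein (Bmi1 or Pcgf2), 1 Cbx protein and 1 Polyhomeotic protein (Phc1, Phc2 or Phc3), whose SAM domain joins complexes into larger assemblies and so compacts chromatin. In mouse embryonic stem cells Cbx7 is known as the main Cbx protein of PRC1, and Cbx2 and Cbx8 are known to be used more after differentiation.

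Values are MAS5 signals on a linear scale, 1 per probe set and array, and each is given in the order of sample numbers 1 to 3. Changes are log2 fold changes of Pcl2 shRNA over mismatch control, on the scale log2(signal + 7), which understates changes of dim genes. Tests are limma's, two-sided, and a gene passed at a Benjamini-Hochberg adjusted p below 0.05 over all genes or probe sets tested. Dim probe sets were left out (those whose mean log2 value was below the 40th percentile of the array, near a signal of 20.2), and 14 of the 18 member probe sets and 8 of the 9 genes were tested. Each gene is represented by its brightest probe set unless another is named. Signals of different probe sets are not on a common scale, so no member's level is set against another's. The number of arrays limits the precision.

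The targeted gene, Mtf2, was lower after the knockdown. The brightest of its probe sets gave 1048, 1167 and 869.6 in the Pcl2 shRNA cells, against 1951, 1513 and 1704 in the mismatch control cells. Every Pcl2 shRNA array was lower, with a log2 fold change of -0.74 (SE 0.17, limma adjusted p = 0.0157), and the call was lost without Pcl2 shRNA replicate 3 or mismatch control replicate 1 (limma adjusted p = 0.0574 and 0.0519). Of its 5 tested probe sets 4 passed as lower, and the other gave log2 0.25 with overlapping groups (limma adjusted p = 0.573 over all probe sets). The 3' to 5' signal ratio of the Actb control probe sets was 1.18 to 1.33 in Pcl2 shRNA arrays and 1.14 to 1.22 in control arrays, and pairs of arrays correlated at 0.965 to 0.974 (log2 values) inside a group and at 0.943 to 0.962 across groups. Of 10 embryonic stem cell markers on the array all were tested, 5 were higher and 5 did not pass, beside 4.46% of all genes tested that were higher. The summed signal of the 10 was 35720 to 46920 in Pcl2 shRNA arrays and 23190 to 30350 in control arrays. The markers of the labelled cell type were thus present in both groups.

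Phc2 was the member that fell in the Pcl2 shRNA cells, to 37.3% of the control signal. The brighter of its probe sets, 1437239_x_at, gave 181, 160.5 and 201 in the Pcl2 shRNA cells, against 490.2, 406 and 559 in the mismatch control cells. All Pcl2 shRNA arrays lay below all control arrays. The means were 181 ± 20.2 in Pcl2 shRNA cells and 485 ± 76.6 in mismatch control cells (SD, n = 3 each), and the log2 fold change was -1.38 (SE 0.18, 95% interval -1.78 to -0.98, limma adjusted p = 0.001). The other probe set, 1416048_at, gave 121.5, 138 and 196 in the Pcl2 shRNA cells, against 289.5, 301 and 476 in the mismatch control cells. It separated the groups as well and gave -1.18 (SE 0.25, limma adjusted p = 0.0134 over all probe sets), a call that was lost without Pcl2 shRNA replicate 1 or 2, while the brighter probe set kept its call without any 1 array. The first of these may cross-hybridise, as the x in its name marks, and the second carries no such mark. The exact permutation p was 0.1 for each, two-sided, the smallest that 3 against 3 arrays allow.

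Phc2 stood well down the distribution of all genes without being extreme in it. A lower log2 fold change was found for 3.26% of the 13095 genes tested, and for 38.4% of the genes called lower. Of the 8 member genes tested 1 passed, and it was lower; over all genes tested 12.6% passed in either direction and 8.16% were lower. Of the 14 member probe sets tested 2 passed, both of Phc2, against 10.4% of all probe sets tested. These were also the 2 whose groups did not overlap, which held for 29.4% of all tested probe sets. The share of members called was thus near that of all genes, and the count says nothing particular about canonical PRC1.

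**Figure D1:**
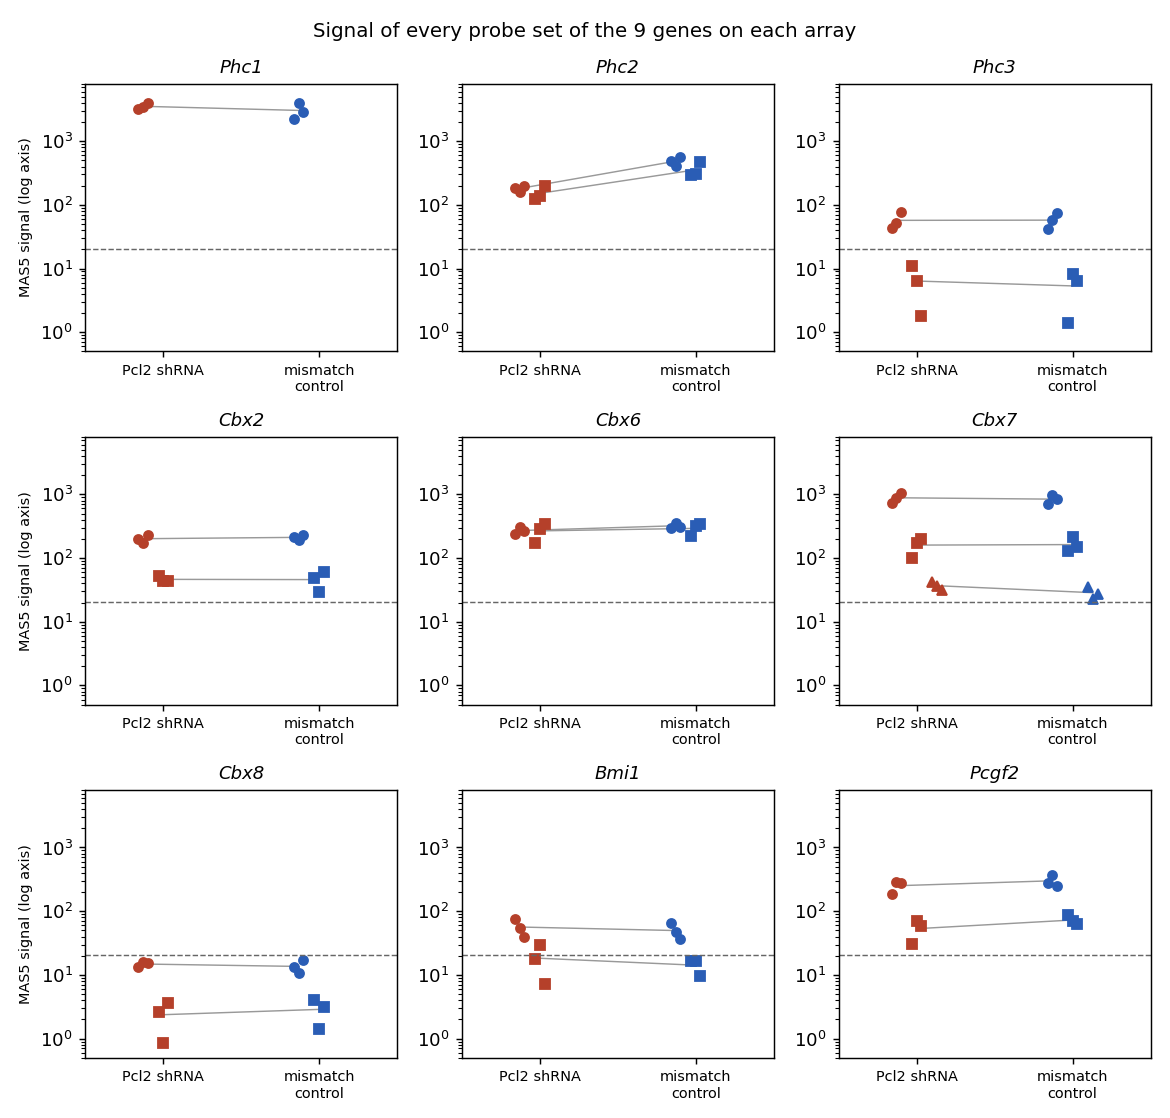
MAS5 signal (log axis) of every probe set of the 9 genes on each array, with Pcl2 shRNA in red on the left and mismatch control in blue on the right of each panel; marker shapes separate the probe sets of a gene, grey lines join group means and the dashed line is the background signal of 20.3. Phc2 is the panel in which the groups separate, with 181 ± 20.2 against 485 ± 76.6 for its brighter probe set, and both Cbx8 probe sets lie below the dashed line.

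The other Polyhomeotic genes did not pass. Phc1, the Polyhomeotic gene that is known to be strongly expressed in embryonic stem cells, gave 3222, 3425 and 3935 in Pcl2 shRNA cells, against 2191, 4018 and 2904 in mismatch control cells. The groups overlapped, and the control arrays varied more, with a coefficient of variation of 30.3%, than the Pcl2 shRNA arrays, with 10.4%. Its log2 fold change was 0.25 (95% interval -0.22 to 0.72, limma adjusted p = 0.51). Phc3 gave 42.6, 52.8 and 76.0 in Pcl2 shRNA cells, against 42.3, 56.9 and 73.5 in mismatch control cells, nearly the same values in each group, and a log2 fold change of -0.01 (95% interval -0.62 to 0.59). A second Phc3 probe set, 1443651_at, was below background on every array.

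Within the family the change was unequal. The difference in log2 change between Phc2 and Phc1 was -1.64, and that between Phc2 and Phc3 was -1.37. For both pairs the within-array difference of log2 values was lower in every Pcl2 shRNA array than in any control array (exact permutation p = 0.1, two-sided, the smallest possible, n = 3 each). Phc1 and Phc3 differed in change by 0.27, with overlapping groups (exact permutation p = 0.4, n = 3 each).

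**Figure D2:**
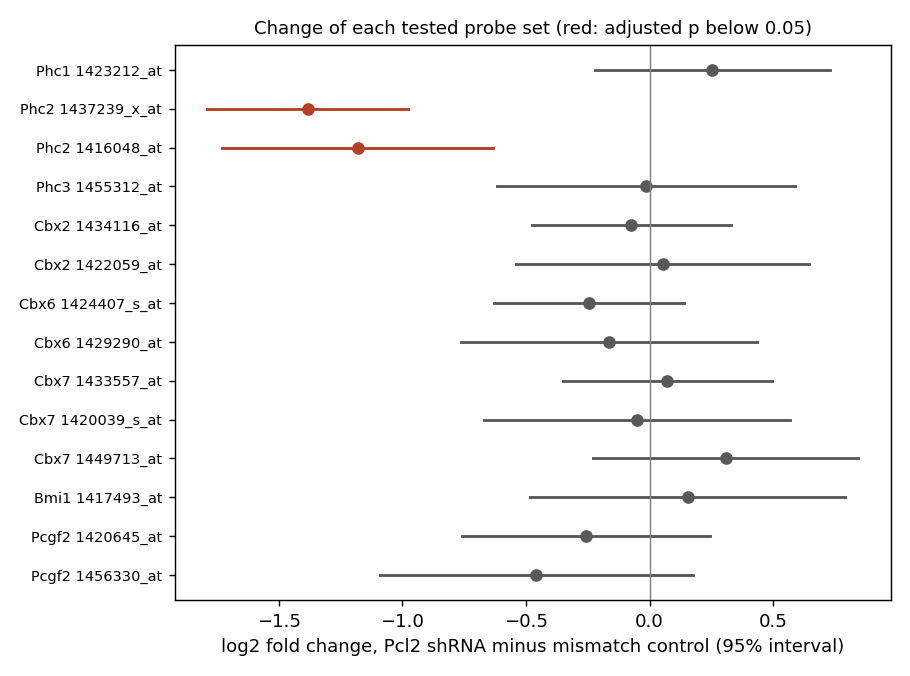
Log2 fold change of Pcl2 shRNA minus mismatch control for the 14 tested member probe sets, with the 95% interval of the limma fit; red marks an adjusted p below 0.05 over all probe sets. The Phc2 probe sets, at -1.38 and -1.18, have intervals below 0, and the intervals of the other 12 include 0.

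Of the chromobox genes none of the 3 tested (Cbx2, Cbx6 and Cbx7) passed. Cbx7 gave 738, 866 and 1046 in Pcl2 shRNA cells, against 698, 990.2 and 832.5 in mismatch control cells, so the ranges overlapped almost fully. Its log2 fold change was 0.07 (95% interval -0.34 to 0.49, limma adjusted p = 0.856). Its other probe sets gave log2 fold changes of -0.05 and 0.31, which did not pass. Cbx2, whose protein also compacts nucleosomes, gave 201, 172 and 230.5 in Pcl2 shRNA cells, against 217, 190.4 and 227 in mismatch control cells. This was a log2 fold change of -0.07 (95% interval -0.47 to 0.32), and its second probe set gave 0.05.

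By brightest probe set, Cbx6 had the largest difference of the 3 tested chromobox members, and it did not pass either. It gave 241, 302 and 267 in Pcl2 shRNA cells, against 292, 361 and 310.2 in mismatch control cells, and the highest Pcl2 shRNA array lay above the lowest control array. The log2 fold change was -0.25 (95% interval -0.62 to 0.13, limma adjusted p = 0.414), and a second probe set gave -0.16. Set against Cbx7 within each array, Cbx6 changed by -0.32, and the within-array differences of the groups did not overlap (exact permutation p = 0.1, n = 3 each). The pairs of Cbx2 with Cbx6 and with Cbx7 overlapped (exact permutation p = 0.5 and 0.8, n = 3 each). In all, 7 pairs of paralogues were compared, and the 3 that did not overlap were both pairs with Phc2 and Cbx6 with Cbx7. Groups that do not overlap were common, at 29.4% of all tested probe sets taken singly, and no pair can reach an adjusted p below 0.1.

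Cbx8 was not above the background signal used here. Its probe sets reached at most 15.9 in the Pcl2 shRNA cells and 16.8 in the mismatch control cells, under the highest signal of 20.3 on any array of 27 bacterial control probe sets without a spike. No fold is given for it. That ceiling itself differed by group, at 18.0 to 20.3 in Pcl2 shRNA arrays and 11.2 to 12.1 in control arrays. By each array's own ceiling, 1419198_at of Cbx8 lay below it on all Pcl2 shRNA arrays and above it on mismatch control arrays 1 and 3 (13.1 and 16.8, against 11.3 and 12.1). Another 2 member probe sets were left untested: the dim one of Phc3 and 1448733_at of Bmi1, which exceeded 20.3 on 1 Pcl2 shRNA array (29.5) and its own array's ceiling on mismatch control arrays 1 and 2 too (16.6 and 16.4).

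The Pcgf genes, which encode the partner of the RING ligase, did not pass. Bmi1 gave 75.7, 54.9 and 38.7 in Pcl2 shRNA cells, against 66.0, 46.6 and 36.4 in mismatch control cells. Within each group the first array was the highest and the last the lowest, and the SD was 32.9% of the mean in Pcl2 shRNA cells and 30.3% in mismatch control cells. The log2 fold change was 0.15 (95% interval -0.48 to 0.79, limma adjusted p = 0.793). Pcgf2, also known as Mel18, gave 186, 290.3 and 276 in Pcl2 shRNA cells, against 275, 375 and 251 in mismatch control cells, with overlapping groups. Its log2 fold change was -0.26 (95% interval -0.75 to 0.24, limma adjusted p = 0.529). A second Pcgf2 probe set gave 30.9, 69.9 and 58.6 in Pcl2 shRNA cells, against 86.5, 69.9 and 61.9 in mismatch control cells, or -0.46 (limma adjusted p = 0.371 over all probe sets). Its difference rested mostly on the arrays numbered 1. Bmi1 and Pcgf2 differed in change by 0.41, with overlapping groups (exact permutation p = 0.6, n = 3 each).

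For the 7 tested members that did not pass, the 95% intervals ran between 0.593-fold and 1.73-fold. A change of the size of Phc2's (0.383-fold) lay outside each of them. The median log2 fold change was -0.04 over the 8 tested members and 0.02 over all genes tested.

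**Figure D3:**
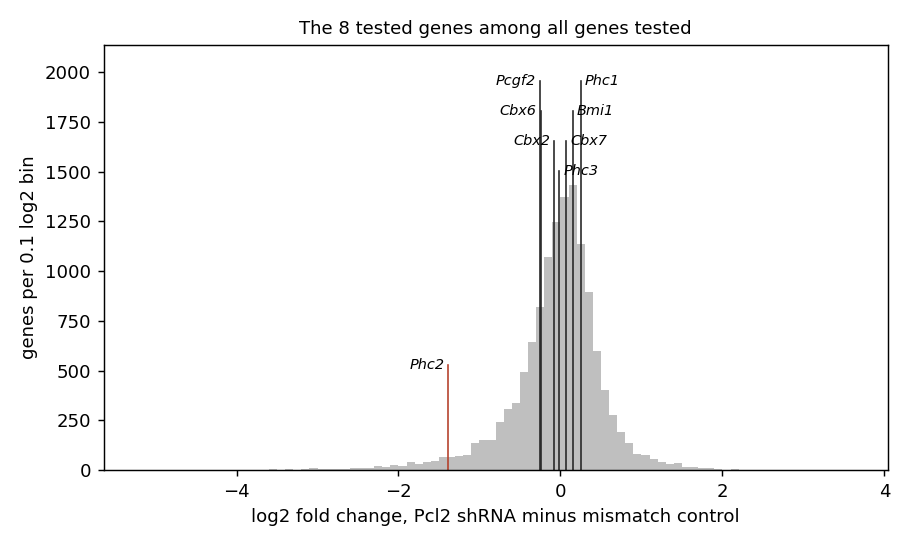
Histogram of log2 fold changes (Pcl2 shRNA minus mismatch control) of the 13095 genes tested, in bins of 0.1, with the 8 tested members as vertical lines whose heights only separate the labels; red marks Phc2. The lines of 7 members stand between -0.26 and 0.25 in the bulk of the distribution, and that of Phc2 at -1.38.

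Samples with the same number resembled each other across the groups, and some members, such as Bmi1 and Phc3, showed it. Between arrays of the same number, Phc2 differed by log2 -1.40, -1.30 and -1.44, and Phc3 by 0.01, -0.10 and 0.04. Cbx6 was lower in all 3 pairs (-0.27, -0.25 and -0.21) and Bmi1 higher in all 3 (0.18, 0.21 and 0.07). Phc1 moved both ways (0.55, -0.23 and 0.44), as did Cbx7 (0.08, -0.19 and 0.33), Cbx2 (-0.11, -0.14 and 0.02) and Pcgf2 (-0.55, -0.36 and 0.14). With the sample number as a replicate block the standard error of Bmi1 was 0.20, against 0.29 without it, and that of Phc3 0.19, against 0.27. The block left the calls of the members as they were: Phc2 passed (limma adjusted p = 9.82e-05) and the next smallest was Cbx6 (limma adjusted p = 0.194), while 23.8% of all genes tested passed in that fit.

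**Figure D4:**
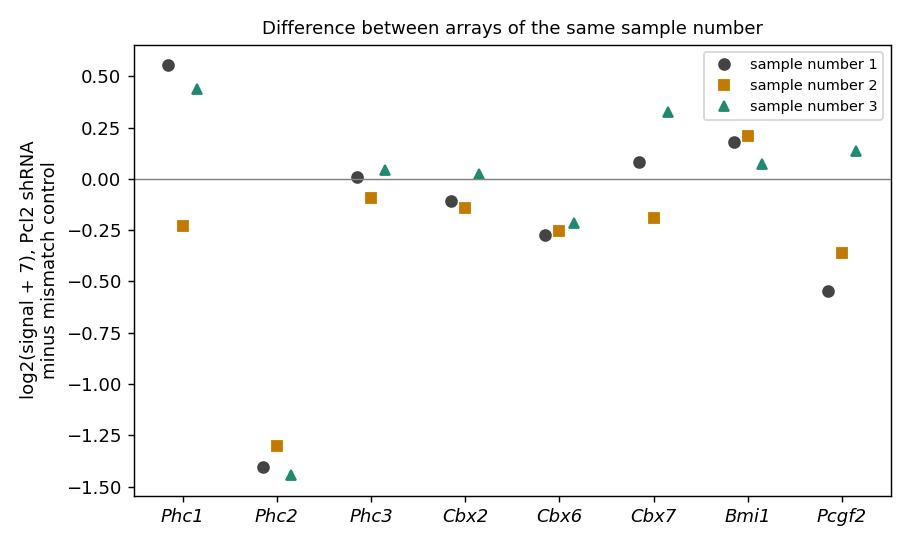
Difference in log2(signal + 7) between the Pcl2 shRNA and mismatch control arrays of the same sample number, for the brightest probe set of each tested member; marker shape and colour give the number. The 3 points of Phc2 lie between -1.44 and -1.30, those of Cbx6 between -0.27 and -0.21, and those of Phc1 on both sides of 0.

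By the pattern over the 6 arrays, the genes nearest to Phc2 were Smtn (smoothelin, of smooth muscle), Capg (an actin-capping protein) and Pam (a peptide-amidating enzyme). The mean absolute difference of their centred log2 values from those of Phc2 was 0.0261, 0.052 and 0.057. Smtn gave 88.0, 81.6 and 104 in Pcl2 shRNA cells, against 251, 204 and 291 in mismatch control cells, a log2 fold change of -1.37. For Capg and Pam it was -1.41 and -1.45.

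Some markers of other cell types were lower in the Pcl2 shRNA cells, as Phc2 was. All marker lists were chosen with earlier results of these data known, and 8.16% of all genes tested were lower. Of 5 tested trophectoderm markers 3 were lower (Cdx2, Krt8 and Krt18), and the summed signal of the 7 on the array was 1048 to 1448 in Pcl2 shRNA arrays and 4881 to 9264 in control arrays. Krt8 alone gave 129, 165 and 147 in Pcl2 shRNA cells, against 4329, 2386 and 3935 in mismatch control cells. Krt18 gave 131, 106 and 147.5 in Pcl2 shRNA cells, against 3842, 1800 and 4099 in mismatch control cells, so these keratins made up most of the control sums. Tfap2c, of the same list, lay higher in every Pcl2 shRNA array, with 682.5, 751 and 1004, against 611, 483 and 604 in mismatch control cells (log2 0.51, limma adjusted p = 0.108, and 0.0285 with the replicate block). Gata3 was at or below a signal of 20.3, the background set out above for Cbx8, on every array. For 7 primitive endoderm markers the sums were 227 to 271 in Pcl2 shRNA arrays and 322 to 435 in control arrays, with 1 of 4 tested lower (Dab2). For 5 neural markers they were 342 to 410.3 in Pcl2 shRNA arrays and 370 to 499.5 in control arrays, which overlapped. Of these 1 of 4 tested was lower (Nes), and Pax6 and Tubb3 gave log2 0.16 and 0.11 and did not pass. The neural marker Sox1, too dim to be tested, lay higher in every Pcl2 shRNA array. It gave 28.5, 18.3 and 15.5 in Pcl2 shRNA cells, against 0.452, 8.43 and 2.41 in mismatch control cells. The 9 fibroblast markers summed to 300.3 to 627 in Pcl2 shRNA arrays and 394 to 1031 in control arrays, ranges that overlapped. None of the 6 tested passed, and Dcn and Lum were at or below 20.3 on every array. With the replicate block Col1a1, Col3a1 and the neural marker Map2 passed as lower too (limma adjusted p = 0.0039, 0.0305 and 0.042). The stem cell marker Nanog passed as higher in that fit (limma adjusted p = 0.0107), in which 23.8% of all genes tested passed. The other tested fibroblast markers did not pass in it. Col1a1 was below 20.3 on Pcl2 shRNA array 3 (3.49), and Col3a1 on Pcl2 shRNA arrays 2 and 3 (17.9 and 12.1). The part of these markers in the difference of Phc2 was not tested.

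Other genes of the Polycomb pathway were read from lists that were chosen with earlier results of these data known. The catalytic partners of canonical PRC1 did not pass: Rnf2 gave 1218, 1360 and 1492 in Pcl2 shRNA cells, against 1152, 1087 and 1341 in mismatch control cells (log2 0.18, limma adjusted p = 0.509), and Ring1 gave log2 -0.12 (limma adjusted p = 0.809). Both, and Cdkn2a below, were named after their values were seen. Of 5 tested genes on the list of RING and other canonical subunits, Scml2, a sex comb on midleg homologue, was lower. It gave 33.9, 26.5 and 25.9 in Pcl2 shRNA cells, against 87.5, 39.2 and 105 in mismatch control cells (log2 -1.15, SE 0.32, limma adjusted p = 0.0448), and it lost its call in 5 of 6 fits without 1 array (limma adjusted p up to 0.133). In the fit over all probe sets neither of its 2 tested passed (log2 -1.15 and -1.01).

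Variant PRC1 lacks Phc proteins and the Cbx proteins of canonical PRC1, and its list includes Cbx3, which is also on the HP1 list below. It had 1 of 24 tested genes higher and 3 lower, with 20 that did not pass and a median log2 fold change of -0.03. With the replicate block 5 were higher and 4 lower. The 4 called of 24 stand beside 12.6% of all genes tested, and the block's calls beside 23.8%. Yaf2, a RING-binding subunit, gave 152, 113 and 123.5 in Pcl2 shRNA cells, against 391, 322 and 409 in mismatch control cells (log2 -1.49, SE 0.18, limma adjusted p = 0.000797), and kept its call in all 6 fits without 1 array. E2f6 (log2 -0.87) lost its call without Pcl2 shRNA replicate 3 or mismatch control replicate 1 (limma adjusted p up to 0.0692). The scaffold Mga, higher by log2 1.05, lost its call without Pcl2 shRNA replicate 2 (limma adjusted p = 0.0531). Pcgf5 (log2 -0.999) kept its call in 1 of 6 such fits and in 7 of 12 other alternatives. In the fit over all probe sets, neither of the 2 tested for Pcgf5 passed, and the other gave log2 -0.45. Both of Yaf2, 2 of 3 of Mga and the 1 of E2f6 passed there.

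In PRC2, 4 of 14 tested genes were higher (Ezh2, Eed, Suz12 and Jarid2), Mtf2 was lower and 9 did not pass, with a median log2 fold change of 0.27. Over all genes tested 4.46% were higher, and the replicate block added Epop as higher (limma adjusted p = 0.00798). The largest of the rises was that of Jarid2 at log2 0.85, lost without Pcl2 shRNA replicate 2 (limma adjusted p = 0.092), and without 1 array Ezh2 kept its call in 1 of 6 fits and Eed and Suz12 in 3 of 6. With each array centred on its median, Ezh2, Eed and Jarid2 lost their calls and kept their direction. In the fit over all probe sets, 3 of 6 tested for Suz12 passed, and the 6 ran from log2 -0.22 to 0.93. For Jarid2 2 of 3 passed, the 1 for Eed passed and the 1 for Ezh2 did not. The HP1 chromobox genes Cbx1, Cbx3 and Cbx5, whose chromodomains read another histone mark, did not pass, with Cbx1 at log2 0.45 (limma adjusted p = 0.2) and Cbx5 at 0.05. None of 6 genes for enzymes or cofactors that remove ubiquitin from histone H2A passed by limma, led by Mysm1 (log2 0.45, limma adjusted p = 0.121, and 0.039 with the replicate block) and Asxl2 (log2 0.40). Over 5 tested probe sets each, Cbx1 ran from log2 -0.31 to 0.45, Cbx5 from 0.02 to 0.48 and Asxl2 from -0.36 to 0.61. None of these probe sets passed.

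Of 6 regulators and known targets of PRC1, Cdkn2b, a cell cycle inhibitor of the Ink4 locus, was lower, with 48.8, 37.9 and 45.2 in Pcl2 shRNA cells against 222, 77.9 and 171 in mismatch control cells (log2 -1.58, SE 0.33, limma adjusted p = 0.0115). It kept its call in all 6 fits without 1 array, and with the replicate block, in which 23.8% of all genes passed, Cdkn1a and Myc were lower too and E2f1 was higher (limma adjusted p = 0.0121, 0.0462 and 0.0101). Cdkn2a, of the same locus, gave 19.9, 26.8 and 31.5 in Pcl2 shRNA cells, against 52.1, 32.1 and 34.0 in mismatch control cells (log2 -0.48, limma adjusted p = 0.296).

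The bases before the starts of the Polyhomeotic genes are shown because Phc2 changed and its paralogues did not pass. RefSeq lists 3 starts for Phc2, 1 for Phc1 and 1 for Phc3 on GRCm38.p6. The arrays did not measure which start was used. Each line holds the 250 bases before a start, 5′ to 3′ on the gene's strand, and capitals mark GC boxes (GGGCGG) and E-boxes (CACGTG) on either strand.
Phc2, start at the lowest coordinate (chr4:128654452-128654701, plus strand): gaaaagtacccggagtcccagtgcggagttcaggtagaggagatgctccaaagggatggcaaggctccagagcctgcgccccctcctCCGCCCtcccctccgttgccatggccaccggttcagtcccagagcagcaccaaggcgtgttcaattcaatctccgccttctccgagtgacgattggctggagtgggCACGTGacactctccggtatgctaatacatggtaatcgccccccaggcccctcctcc
Phc2, middle start (chr4:128688488-128688737, plus strand): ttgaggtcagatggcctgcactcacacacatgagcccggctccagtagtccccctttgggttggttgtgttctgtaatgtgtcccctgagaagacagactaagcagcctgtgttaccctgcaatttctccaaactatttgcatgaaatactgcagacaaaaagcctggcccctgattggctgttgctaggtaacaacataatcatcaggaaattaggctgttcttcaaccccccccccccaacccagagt
Phc2, start at the highest coordinate (chr4:128727321-128727570, plus strand): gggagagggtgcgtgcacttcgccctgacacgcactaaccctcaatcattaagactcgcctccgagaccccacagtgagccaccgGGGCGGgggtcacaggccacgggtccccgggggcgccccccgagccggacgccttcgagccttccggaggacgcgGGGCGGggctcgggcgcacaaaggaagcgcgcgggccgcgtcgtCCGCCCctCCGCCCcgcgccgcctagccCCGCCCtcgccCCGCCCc
Phc1 (chr6:122340228-122340477, minus strand): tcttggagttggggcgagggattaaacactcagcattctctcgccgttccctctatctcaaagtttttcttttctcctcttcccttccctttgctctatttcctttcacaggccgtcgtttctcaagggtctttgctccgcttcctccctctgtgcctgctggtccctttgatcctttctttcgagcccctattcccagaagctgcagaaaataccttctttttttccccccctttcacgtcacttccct
Phc3 (chr3:30969416-30969665, minus strand): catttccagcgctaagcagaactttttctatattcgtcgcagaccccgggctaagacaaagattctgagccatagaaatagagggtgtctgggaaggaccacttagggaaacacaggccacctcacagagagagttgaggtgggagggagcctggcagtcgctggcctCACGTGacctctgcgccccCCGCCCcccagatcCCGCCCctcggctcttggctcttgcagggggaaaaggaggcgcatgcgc
The windows of Phc2 differ widely. The one at the highest coordinate is 76% G and C, with 34 CpG dinucleotides and 6 GC boxes, and the middle one is 50% G and C, with 1 CpG and neither motif. The first has 13 CpG, 1 GC box and 1 E-box. Phc1 has 8 CpG and neither motif, and Phc3 has 12 CpG, 2 GC boxes and 1 E-box. Over all 32851 windows of the table the median was 6 CpG.

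Of the 9 members 8 matched the table, with 10 windows, and 4 motifs were searched on both strands: the GC box and the E-box as spelled above, the TATA box (TATAAA) and an Ets core (CCGGAAG). The GC box was in 8 of the 10 member windows and in 32.7% of all windows, and in 62.1% of the 15211 windows with more CpG than the median. The E-box, a palindrome bound by basic helix-loop-helix factors, was in 6 of the 10 and in 6.02% of all windows, and in 5 of the 8 member windows with more CpG than the median against 9.09% of all such windows. The TATA box was in 0 of 10 and in 12.4% of all windows, and the Ets core in 1 of 10 and in 6.91%. The 6 E-boxes are shown with 10 bases on each side, 5′ to 3′ on the gene's strand with the motif in capitals, since 6 of the 8 matched members hold one. The choice of members did not use the motif, but the motif was picked out of the 4 for that count. The shares above are per window and not per gene.
Bmi1 (chr2:18676793-18676818, plus strand): atgaggggagCACGTGacccggcggg
Cbx6 (chr15:79834344-79834369, minus strand): cccggagcatCACGTGacggcccgca
Cbx8 (chr11:119040996-119041021, minus strand): tcgttagcaaCACGTGgggcgggagg
Pcgf2 (chr11:97699770-97699795, minus strand): ggaatgaggtCACGTGggtgagtagt
Phc2 (chr4:128654635-128654660, plus strand): ctggagtgggCACGTGacactctccg
Phc3 (chr3:30969482-30969507, minus strand): tcgctggcctCACGTGacctctgcgc
None of the 6 overlaps a GC box. Their last bases lie from 21 (Cbx6) to 210 (Bmi1) bases before the start. Phc2, which fell, and 4 tested members that did not pass carry the motif, and Cbx7 and Phc1 do not carry it in these windows; the match is a description of the letters and not of binding.

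**Figure D5:**
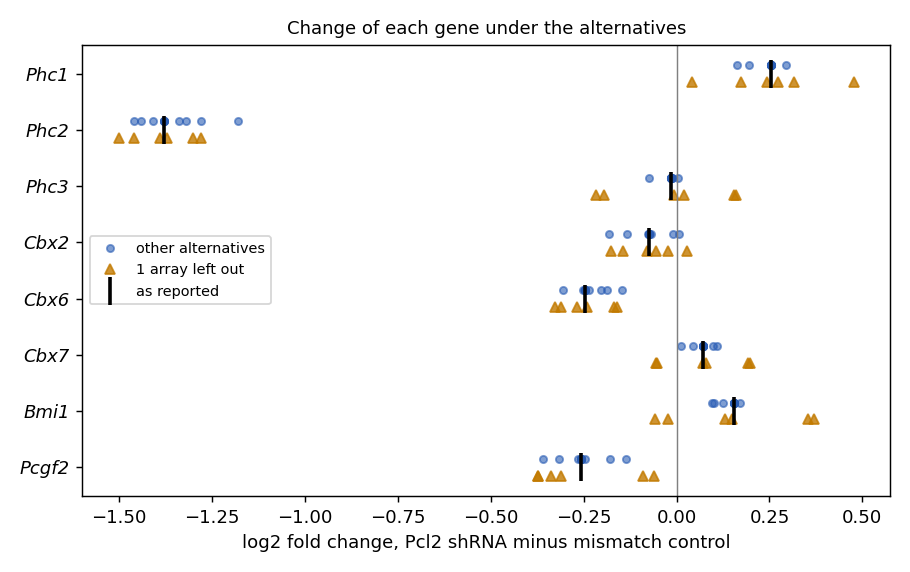
Log2 fold change (Pcl2 shRNA minus mismatch control) of the 8 tested members as reported (black bars), with 1 array left out (orange triangles) and under the other alternatives (blue circles). Phc2 stays between -1.50 and -1.18, and Phc3, Cbx2, Cbx7 and Bmi1, none of which passed, have values on both sides of 0.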

How the data were processed

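Per the labels' protocols and the submitters' processing notes, the authors scanned Affymetrix Mouse Genome 430 2.0 arrays and deposited 1 MAS5 signal intensity per probe set, made with GCOS 1.4; no other settings are given in these sources. The mean trimmed by 2% at each end was 150.001 on the arrays, so this scaling was kept, and no detection calls were used. Of 45101 probe sets 34945 named 1 gene, 932 several, 9160 none and 64 were controls. Names were updated through the RefSeq gene table of GRCm38.p6 (34741 probe sets matched), and promoter windows are RefSeq's on that build. Tests used limma 3.58.1 in R 4.3.3 (lmFit, eBayes with trend) on log2(signal + 7), over 13095 genes and 23186 probe sets, without a block.

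Single values were tested by exact permutation over 20 relabellings. The deviations from the group means correlated at 0.386, 0.25 and 0.397 between same-numbered samples, all above 0.1. On the data alone, the numbers were therefore treated as pairs in the replicate block and in the differences between same-numbered arrays. The main fit and the permutations left the pairing out. Named were the members, Mtf2, list genes past the threshold (otherwise the 2 with the smallest p) and the 3 genes nearest to a called member. The members and lists were chosen with earlier results of these data known. The procedure was tested on simulated data with independent noise on each array, a setting without the resemblance of same-numbered samples. Alternatives changed normalization, pseudocount, filter, probe set choice, eBayes settings, block, array weights, a floor and each array. Cbx2 has no printed promoter.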

Additional observations from a re-analysis of the deposited data

How the results depend on the processing

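Phc2 passed under all 18 alternatives, at log2 -1.50 to -1.18 with limma adjusted p = 9.82e-05 to 0.0099, and was the 1 member gene to do so in each. Both Phc2 probe sets passed (the count of 2) except that 1 passed without cross-hybridising probe sets, where the other was not tested, and 1 to 2 passed without 1 array: 1416048_at was lost without Pcl2 shRNA replicate 1 or 2. Mtf2 ranged from -0.84 to -0.63 without 1 array and lost its call without Pcl2 shRNA replicate 3 (limma adjusted p = 0.0574) or mismatch control replicate 1 (0.0519, from another of its probe sets). All genes past the threshold numbered 3113 with the replicate block, 979 to 1598 without 1 array (979 without Pcl2 shRNA replicate 2) and 1652 as reported. The block changed no member's call.

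Members that did not pass had no fixed direction in 4 cases. Without 1 array Bmi1 ranged from -0.058 to 0.37, Cbx2 from -0.175 to 0.0293, Cbx7 from -0.0564 to 0.197 and Phc3 from -0.217 to 0.159. Cbx2 was 0.00538 with quantile normalization and Phc3 0.00449 with array weights. Phc1, Cbx6 and Pcgf2 kept their direction, as did the 7 paralogue differences in the settings run (without 1 array, Phc2 minus Phc1 at -1.98 to -1.41, Phc2 minus Phc3 at -1.54 to -1.18). Other paralogue differences shrank to almost nothing without 1 array: Cbx2 minus Cbx7 to -0.00141, Bmi1 minus Pcgf2 to 0.00347 and Cbx2 minus Cbx6 to 0.0149. The cause was not tested. Dim signal limits Cbx8 and the second probe sets of Bmi1 and Phc3.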
